A study of Mus musculus with 14 samples.

Results

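The 6 genes described here encode proteins that hold the ends of meiotic chromosomes at the nuclear envelope: Terb1, Terb2, Majin, Spdya, Sun1 and Terf1. They were chosen by name, and all 6 were found among the 32667 genes of the spermatogonia (Spg) count table and the 36888 genes of the spermatocyte (Spc) count table. RNA was sequenced from sorted male germ cells of Dnmt3C KO/KO mice (KO) and wild-type mice (WT), to follow the response of retrotransposons to the loss of promoter DNA methylation. Spg came from mice at postnatal day 14, as Ep-CAM-positive and β2-microglobulin-negative cells, with 3 libraries for each genotype. Spc came from mice older than 20 days, sorted by Hoechst staining of DNA content, with 4 libraries for each genotype. All mice were on a C57Bl6/J background. DNMT3C methylates the promoters of young retrotransposons in male germ cells, and the KO stops at the pachytene stage of meiosis, so that the WT sort of Spc can hold later cells than the KO sort. The samples are described as germ cells of littermates, but no label ties a library to 1 animal, so p-values measure the spread between these libraries, which may be partly technical.

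In meiotic prophase every chromosome end moves to the nuclear envelope, where it is tied through the membrane to the cytoskeleton and is pulled along the nucleus while homologous chromosomes search for each other. TERF1 is the shelterin protein that binds the double-stranded telomere repeat, and TERB1, TERB2 and MAJIN form the meiosis-specific bridge from TERF1 to the inner nuclear membrane, in which MAJIN is anchored. SPDYA (also known as Speedy A) binds and activates CDK2 at telomeres, and SUN1 spans the inner membrane and joins KASH5 in the outer membrane, which in turn recruits dynein. Male mice that lack Terb1, Terb2, Majin, Spdya or Sun1 arrest in meiosis.

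The genes lie on 6 chromosomes of GRCm38. Terb1 (ENSMUSG00000052616.10) is at chr8:104446719-104509910 on the minus strand, and the others are on the plus strand. Terb2 (ENSMUSG00000027229.5) is at chr2:122186272-122206397 and Majin (ENSMUSG00000024786.9) at chr19:6184388-6224225. Spdya (ENSMUSG00000052525.14) is at chr17:71552061-71589533, Sun1 (ENSMUSG00000036817.14) at chr5:139200637-139249840 and Terf1 (ENSMUSG00000025925.14) at chr1:15805646-15844052. All are annotated as protein-coding.

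RefSeq start sites with sequence at hand covered Terb1, Spdya and Sun1. The 250 bases before the start are shown for these genes, which include the pair of members with the most similar profiles over the 14 libraries (Terb1 and Spdya) and the member that varied least between the groups (Sun1). Capitals mark 3 motifs on either strand: the E2F motif GGCGGGA, the GC box GGGCGG, which can overlap the E2F motif, and CCAAT. The windows are from GRCm38.p6: chr8:104509888-104510137 on the minus strand for Terb1, chr17:71551811-71552060 on the plus strand for Spdya, and chr5:139200387-139200636 on the plus strand for the upstream start of Sun1.
Terb1: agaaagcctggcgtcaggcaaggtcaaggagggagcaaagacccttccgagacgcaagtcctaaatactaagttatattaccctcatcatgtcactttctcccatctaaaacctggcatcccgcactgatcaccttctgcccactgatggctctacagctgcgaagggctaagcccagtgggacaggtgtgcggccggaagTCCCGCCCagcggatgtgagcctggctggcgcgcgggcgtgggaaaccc
Spdya: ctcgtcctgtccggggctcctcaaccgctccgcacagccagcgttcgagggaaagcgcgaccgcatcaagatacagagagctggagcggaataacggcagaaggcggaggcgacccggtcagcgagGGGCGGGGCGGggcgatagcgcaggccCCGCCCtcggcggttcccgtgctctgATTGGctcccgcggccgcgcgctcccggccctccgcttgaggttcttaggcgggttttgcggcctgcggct
Sun1: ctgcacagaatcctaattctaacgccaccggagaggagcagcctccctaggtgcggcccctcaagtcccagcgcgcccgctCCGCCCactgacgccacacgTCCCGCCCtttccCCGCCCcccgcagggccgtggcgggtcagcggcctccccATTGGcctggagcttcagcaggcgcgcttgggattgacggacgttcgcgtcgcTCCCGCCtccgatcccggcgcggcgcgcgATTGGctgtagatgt

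The Spdya window held 33 CpG, that of Sun1 30 and that of Terb1 13, against a median of 6 over all RefSeq windows. A second start of Sun1 (window chr5:139214908-139215157) had 1 CpG and no E2F motif or GC box, and is not shown. An E2F motif was present before the start of Terb1 and at 2 places before Sun1, but not before Spdya. In windows that reach 50 bases past the start, 11.34% of 32851 promoters held this motif, 35.66% held a GC box and 37.41% held CCAAT. GC boxes were present in all 3 windows shown, and CCAAT before Spdya and before both starts of Sun1. None of the members' windows held the letters GCGCATG, the core of the NRF1 motif (3.909% of promoters), or GGCAGTT, a core of the A-MYB motif (4.119%). The letters CCTCAG, read by STRA8, lay just past the start of Spdya and of Sun1 (26.75% of promoters). These matches describe the letters only.

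Total counts ran from 40555726 to 49332778 in the Spg and from 44883293 to 53323651 in the Spc libraries, so that every member was counted at least 410 times in each library. Values are given as CPM, which are counts brought to one library total after scaling by the trimmed mean of M values (TMM) of edgeR. The scaling was done within each stage, so that these CPM of Spg and Spc are not on one scale. Changes between stages, values per kb and profiles over all libraries use a common scaling of the 14 libraries. A difference was called at a Benjamini-Hochberg adjusted p-value under 0.01 in edgeR's quasi-likelihood test over all genes and subfamilies of transposable elements (TE). Gene-level counts of Dnmt3c were not lower in the KO, with 58 to 116 counts in KO and 53 to 89 in WT Spg and 52 to 57 in KO and 11 to 28 in WT Spc. The deleted part of the gene is not given in the sources used here, so that these counts do not check the genotype. TE subfamilies took 5.74 to 8.67% of counts in KO and 1.77 to 2.93% in WT Spc.

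The sorted populations differed between the groups. In Spc, 7 of 8 markers of pachytene cells and 8 of 8 of spermatids were called lower in the KO. The summed level of the pachytene list was 73.0 to 223 CPM in KO and 5484 to 11546 in WT Spc, and that of the spermatid list 2.21 to 9.77 and 213 to 1403. Of the 8 early meiotic genes, Sycp1, Sycp3, Hormad1 and Meioc were not called, Stra8, Dmc1 and Prdm9 were higher in the KO, and Spo11 was lower. Spermatogonial markers were higher in 5 of 8 (366 to 894 CPM in KO, 38.3 to 242 in WT), Leydig cell markers in 5 of 5 (46.6 to 276 and 12.4 to 24.6) and macrophage markers in 4 of 4 (15.01 to 89.1 and 2.24 to 4.29). Peritubular markers were higher in 2 of 4 (9.13 to 140 CPM and 2.74 to 8.47), Sertoli markers in 1 of 6 (94.3 to 359 and 45.9 to 153), and the 1 tested erythroid marker was not called. Counts of the pachytene and spermatid lists were the same in every alternative fit, and at least 3 of 4 macrophage markers stayed called. Those of the other lists depended on single libraries. Of the spermatogonial markers 1 was called without KO replicate 2 or 3 or WT replicate 1 or 2, and 2 without WT replicate 4 or with replicates 1 and 4 summed. Of the Leydig cell markers 4 or 5 stayed called without any 1 library, 2 with the replicate block and 1 with the sums. Peritubular calls ran from 0 to 2 without 1 library, being 0 without WT replicate 1, 3 or 4, and Sertoli calls from 0 to 5, being 5 without WT replicate 3 and 4 without KO replicate 3. No gene of these lists was at 0 in all Spc libraries of a genotype. The pachytene sum also differed in Spg, with 306, 1240 and 115 CPM in WT replicates 1 to 3 and 90.2, 64.6 and 48.1 in the KO. Of the 7 pachytene markers tested there, 5 had KO libraries below all WT libraries, and the median log2 fold change was -4.61. In Spg edgeR called none of the markers, while 5 of the pachytene ones had an unadjusted p-value under 0.05 and DESeq2 called 4 of them lower. With the replicate block 1 of them was called. The pachytene markers with the largest differences were Ldhc, a lactate dehydrogenase of meiotic cells (-6.42, adjusted p = 0.0644, edgeR), and Adam2, a sperm surface protein (-6.41, adjusted p = 0.0493, edgeR). Over the alternative fits Ldhc ran from -6.95 to -4.58 and Adam2 from -6.89 to -4.85. Without WT replicate 2 the median was -2.61, and Adam2 was called at -4.85. Without WT replicate 3 the median was -5.15 and 2 pachytene markers were called lower, and without the filter on low counts 3 were. The spermatid sum in Spg was 2.58 to 3.42 CPM in KO and 4.34 to 26.3 in WT, without overlap. Only 3 of its 8 markers had enough counts to be tested, with a median log2 fold change of -0.26. Spaca1 (-0.26) and Tnp1 (0.15) overlapped between KO and WT. The other, Acr, the acrosomal protease, was at -8.28 (adjusted p = 0.0526 with edgeR and 1.9e-06 with DESeq2). Over the alternative fits Acr ran from -9.48 to -6.60. With the replicate block 1 of the 3 spermatid markers was called lower. The Spg libraries also carried early meiotic RNA, with a summed level of 1215 to 1808 CPM in KO and 1622 to 1949 in WT. In Spc it was 1322 to 2399 and 1546 to 2315. These sums were scaled within each stage, so that levels of the 2 stages are not on one scale. In bulk RNA, fewer cells of a type and less RNA per cell cannot be told apart, and the part of these cell populations in the differences below was not tested.

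In Spg, whose libraries also held the early meiotic RNA given above, all 6 members were detected, and none was called different between KO and WT. Terb1, the telomere-binding part of the bridge, had 48.0, 39.8 and 23.9 CPM in the KO and 52.9, 40.6 and 23.7 in WT libraries. Terb2, its partner, had 15.4, 14.9 and 11.1 CPM in KO and 11.5, 18.04 and 8.76 in WT. Majin, the membrane part, had 16.1, 26.5 and 18.3 CPM in KO and 19.1, 39.1 and 22.6 in WT. For each of these genes the KO and WT values overlapped. Spdya had 31.3, 26.05 and 18.2 CPM in KO and 42.5, 61.3 and 22.7 in WT, also with overlap. The 2 highest Spdya values were WT replicates 2 and 1. Sun1 ran from 202 to 239 CPM in KO and from 222 to 255 in WT, and Terf1 from 36.4 to 53.6 and from 35.9 to 49.3, so that both overlapped.

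The number of members called in Spg was 0 of 6 with edgeR, and 0 with DESeq2 or at an unadjusted p-value under 0.05. Over all genes 0.0436% were called, or 9 of 20659, and 108 genes with replicate number as a block. DESeq2 called 514 genes, and 1509 had an unadjusted p-value under 0.05 in edgeR. For 12.1% of genes the KO and WT libraries did not overlap, but they did for each member. The log2 fold changes (KO over WT) were -0.74 ± 0.36 (SE) for Spdya, with an adjusted p of 0.787, and -0.41 ± 0.32 for Majin, and lay between -0.14 and 0.11 for the other 4. Without WT replicate 2, the library with the high pachytene sum, the values of Spdya and Majin were -0.36 and -0.03. Between libraries of the same replicate number, the KO was below WT in 3 of 3 pairs for Spdya, Majin and Sun1, in 2 for Terb1 and in 1 each for Terb2 and Terf1. No label pairs these libraries, and the share of all genes with KO below WT in 3 of 3 pairs was not counted. With the number as a block the fold changes were -0.66 ± 0.20 for Spdya (adjusted p = 0.255), -0.37 ± 0.15 for Majin (adjusted p = 0.457) and -0.14 ± 0.10 for Sun1 (adjusted p = 0.764, edgeR).

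In Spc, Terb1, Majin and Spdya were lower in the KO by 2.74, 3.15 and 4.89 times, while Terb2, Sun1 and Terf1 were not called. Terb1 had 36.6, 28.3, 32.5 and 39.7 CPM in the KO libraries, by replicate number, and 115, 81.9, 63.1 and 116 in those of WT. Its highest KO library was below the lowest WT library. The log2 fold change was -1.46 ± 0.24 (SE, adjusted p = 0.000516, edgeR). Majin had 12.6, 15.9, 12.1 and 11.7 CPM in KO and 36.1, 50.8, 44.5 and 33.1 in WT. These groups were also apart, and the fold change was -1.66 ± 0.24 (adjusted p = 0.00023). Terb2, the part between them in the complex, was not called. It had 17.1, 11.7, 16.2 and 17.7 CPM in KO and 16.6, 28.3, 24.3 and 16.7 in WT, so that WT replicates 1 and 4 lay within the KO range. The fold change was -0.46 ± 0.28 (adjusted p = 0.167).

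Spdya showed the largest difference among the members. KO libraries had 42.5, 30.0, 43.5 and 51.3 CPM, and WT libraries 253, 162, 140 and 264, with no overlap. The log2 fold change was -2.29 ± 0.27 (adjusted p = 7.29e-05). Sun1 had 195, 154, 163 and 213 CPM in KO and 238, 316, 244 and 237 in WT. All KO values were below all WT values, but the fold change of -0.51 ± 0.19 did not pass the threshold (adjusted p = 0.0306). DESeq2 called it (adjusted p = 0.00507). Terf1 had 39.3, 32.3, 47.4 and 46.7 CPM in KO and 63.3, 45.5, 49.5 and 61.9 in WT, which overlapped on this scale but not on that of all 14 libraries (highest KO 53.7, lowest WT 54.6). Its fold change was -0.41 ± 0.21 (adjusted p = 0.109).

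**Figure D1:**
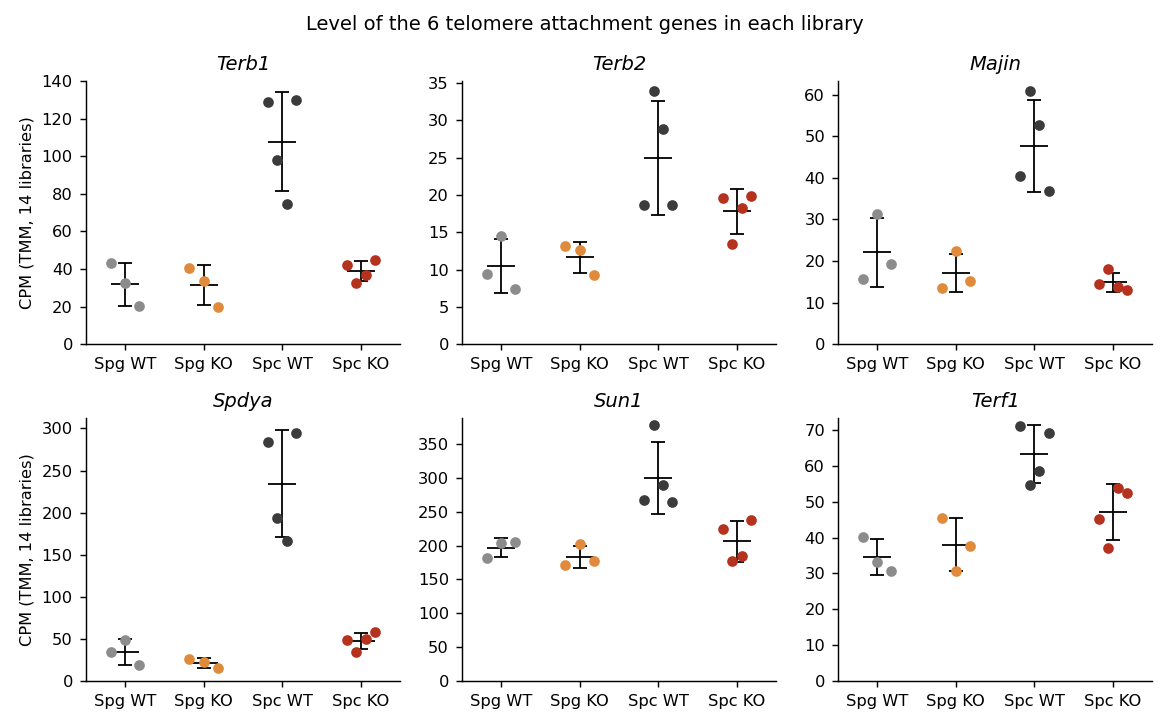
Level of each member in CPM (TMM over all 14 libraries, y axis from 0) in WT and KO spermatogonia (Spg) and spermatocytes (Spc). Points are libraries in order of replicate number and bars are the mean ± SD. Terb1, Majin and Spdya stand high in the 4 WT Spc libraries, while the KO and WT Spc libraries of Terb2 overlap and those of Terf1 come close without overlap (highest KO 53.7, lowest WT 54.6).

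Thus 3 of 6 members were called in Spc, all of them lower. This has to be read against a wide change of the whole transcriptome: 58.8% of 21919 genes were called, 30.7% lower, and for 34.3% of genes all KO libraries were below all WT libraries, as for 4 of the members. The 3 calls held in each of the 8 fits that left out 1 Spc library, with adjusted p between 3.29e-05 and 0.002. They also held with replicates 1 and 4 of each genotype summed, which were more alike than any other pair of Spc libraries but differed beyond sampling noise.

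Directions of the other 3 members depended on the scaling. When libraries were scaled by their total counts alone, the fold changes of Terb2, Sun1 and Terf1 turned to 0.18, 0.16 and 0.30, and Majin lost its call (-0.98, adjusted p = 0.0187). Terb1 (-0.72, adjusted p = 0.00659) and Spdya (-1.55, adjusted p = 0.000141) stayed called. This scaling moved the median of all genes from 0.11 to 0.79. Relative to that median, Spdya was at -2.35, Majin at -1.77, Terb1 at -1.51, Sun1 at -0.63, Terb2 at -0.61 and Terf1 at -0.50, close to their places under TMM. Of the genes called, 47.7% were higher in the KO under TMM and 62.3% under library totals.

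**Figure D2:**
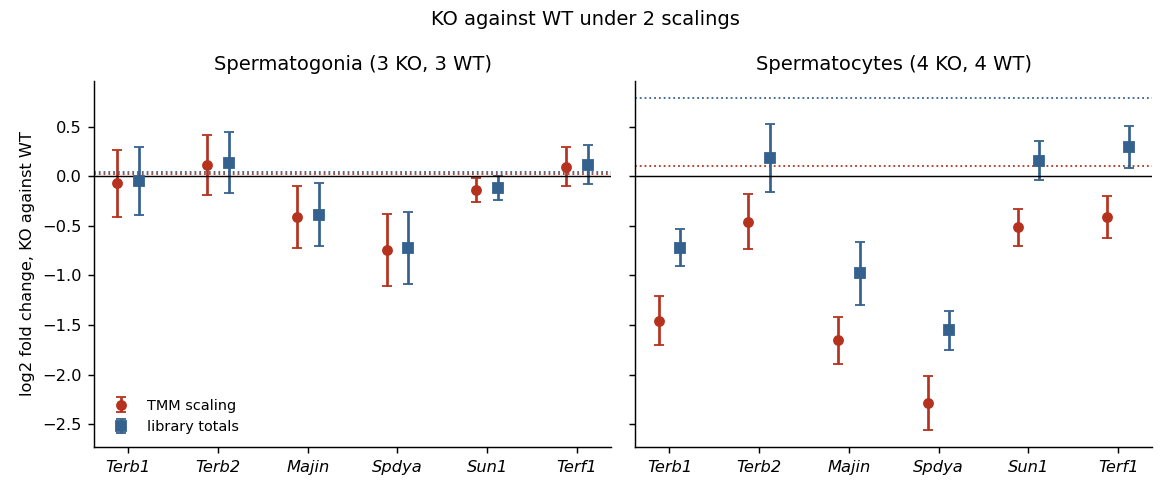
Log2 fold change of each member, KO against WT, in spermatogonia and spermatocytes, with SE, under TMM scaling (circles) and under library totals (squares). Dotted lines are the median of all genes under each scaling. In spermatocytes Terb2, Sun1 and Terf1 are below 0 under TMM and above 0 under library totals, and all members are below the median gene under both.

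A ratio within a library compares the members of the bridge without any scaling between libraries. Levels were divided by the length of the union of exons, which was 3749 bases for Terb1, 2115 for Terb2 and 1641 for Majin. The ratio of Majin to Terb2 per kb was 0.950, 1.74, 0.963 and 0.853 in the KO Spc libraries and 2.81, 2.31, 2.36 and 2.56 in those of WT. The means were 1.13 ± 0.41 and 2.51 ± 0.23 (SD, n = 4), and the groups did not overlap. In Spg the ratio was 1.92 ± 0.51 in KO and 2.75 ± 0.60 in WT (SD, n = 3), where the highest KO library (2.28) was above the lowest WT library (2.13), and the KO was below WT in 3 of 3 pairs of the same number.

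The ratio of Terb1 to Terb2 was 1.24 ± 0.10 in KO Spc (1.13 to 1.36). In WT Spc it fell into 2 levels, 3.90 and 3.93 in replicates 1 and 4 and 1.63 and 1.46 in replicates 2 and 3. Replicates 1 and 4 were also the most alike pair over all genes and may not be independent. The 4 WT values were above the 4 KO values, but the pair of replicates 2 and 3 by little. The same pairs of WT libraries were apart in other members: replicates 1 and 4 were higher in Terb1, Spdya and Terf1 and lower in Terb2, Majin and Sun1 than replicates 2 and 3, Sun1 of replicate 3 by little. Replicates 1 and 4 also had the lower spermatogonial sums, 41.1 and 38.3 CPM against 127 and 242, and the higher pachytene sums, 11546 and 11132 CPM against 8860 and 5484. The part of the cell populations in these ratios was not tested.

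**Figure D3:**
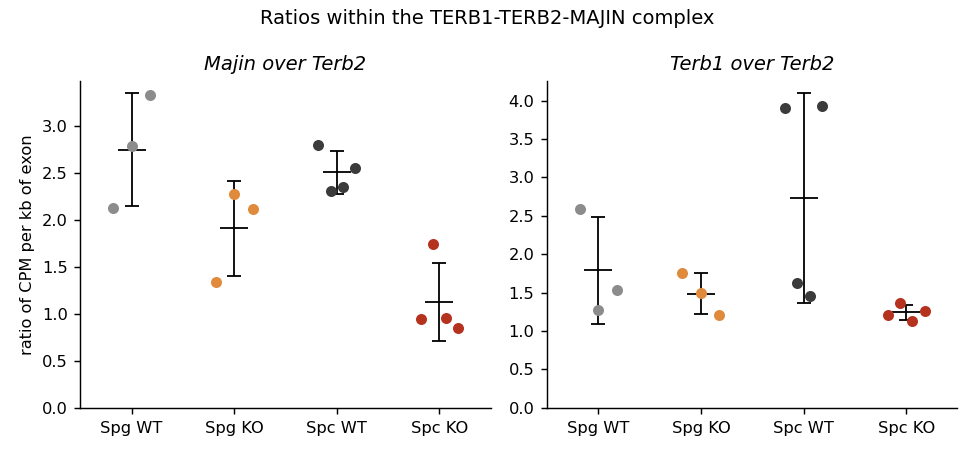
Ratio of Majin to Terb2 and of Terb1 to Terb2, each in CPM per kb of exon, in each library (points, in order of replicate number) with the mean ± SD. In spermatocytes the 4 KO values of Majin over Terb2 (0.853 to 1.74) lie below the 4 WT values (2.31 to 2.81).

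From Spg to Spc of the wild-type all 6 members rose, where 29.2% of 24340 genes were called higher. On the common scale of the 14 libraries Spdya went from 34.4 ± 14.9 to 234 ± 64.0 CPM (mean ± SD, n = 3 and 4), a log2 fold change of 2.77 ± 0.35 (SE, adjusted p = 2.4e-05, edgeR). Terb1 rose from 32.0 ± 11.5 to 108 ± 26.5 CPM, by 1.75 ± 0.31 (adjusted p = 0.000285). For these genes the lowest Spc library was well above the highest Spg library. The other rises were smaller: 1.26 for Terb2, 1.11 for Majin, 0.87 for Terf1 and 0.60 for Sun1, with adjusted p between 0.00263 and 0.00753. No member's WT Spg and Spc libraries overlapped, as was the case in the same direction for 35.3% of genes. Cell type markers moved over the same contrast: the pachytene markers were called higher in 8 of 8 and the spermatid markers in 6 of 6 tested, and the spermatogonial markers were called lower in 8 of 8. Of the somatic lists, Leydig cell markers were called higher in 3 of 5 and macrophage markers in 1 of 4, Sertoli markers were called lower in 2 of 6, and 0 of 4 peritubular markers were called. Leaving out 1 library moved the Leydig calls between 0 (without WT Spg replicate 3) and 4 (without WT Spg replicate 2), the macrophage calls between 0 and 2, and the Sertoli calls between 0 (without WT Spg replicate 1 or WT Spc replicate 1, 2 or 4) and 4. Of the early meiotic genes Stra8 (-3.71), Prdm9 (-3.15) and Dmc1 (-2.33) were called lower, and Spo11 (2.46) and Hormad1 (1.06) higher. The part of these populations in the rise of the members was not tested.

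Spdya and Terb1 kept the call in each of 14 fits without 1 library. The calls of the other 4 were less stable: Terb2 kept it in 12, Majin and Terf1 in 6 each and Sun1 in 3. Without WT Spg replicate 1 or 3, 2 members were called, and 3 were called without KO Spg replicate 1 or 3 or KO Spc replicate 1, 3 or 4. In the latter fits only the scaling, the filter and the estimate of the spread changed, as these libraries are not in the contrast. Under library totals the median of all genes moved from 0.02 to -0.76, Spdya alone was called (1.90), and Sun1 turned to -0.20.

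In the KO these rises did not pass the test. In KO Spc against KO Spg 0 of 6 members were called by edgeR or DESeq2, where edgeR called 3.05% and DESeq2 2337 of 24340 genes. An unadjusted p-value under 0.05 was found for 5962 genes and for 1 member. That member was Spdya, which went from 21.3 ± 5.72 to 47.6 ± 9.68 CPM without overlap, a log2 fold change of 1.16 ± 0.32 (adjusted p = 0.0402). Terb2 (0.61 ± 0.31) also had no overlap between stages, as was the case in this direction for 15.4% of genes. Terb1 (0.31 ± 0.30), Terf1 (0.31 ± 0.21), Sun1 (0.17 ± 0.17) and Majin (-0.20 ± 0.29) overlapped. Majin had 17.1 ± 4.65 CPM in KO Spg and 14.9 ± 2.27 in KO Spc, while it went from 22.1 ± 8.23 to 47.8 ± 11.04 in WT. In this contrast 1 of 8 pachytene and 0 of 6 spermatid markers were called higher, while 4 of 4 macrophage and 3 of 5 Leydig cell markers were, and 0 of 8 spermatogonial markers were called lower. These counts depended on single libraries: without KO Spg replicate 1, 2 or 3 the macrophage calls were 2, 1 and 1 and the Leydig calls 0, 2 and 0, and without KO Spc replicate 4 they were 2 and 1. Without KO Spc replicate 1 or 2 there were 2 macrophage calls, and with replicates 1 and 4 summed 2 macrophage and 0 Leydig calls. Pachytene calls ran from 0 to 2 without 1 library.

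**Figure D4:**
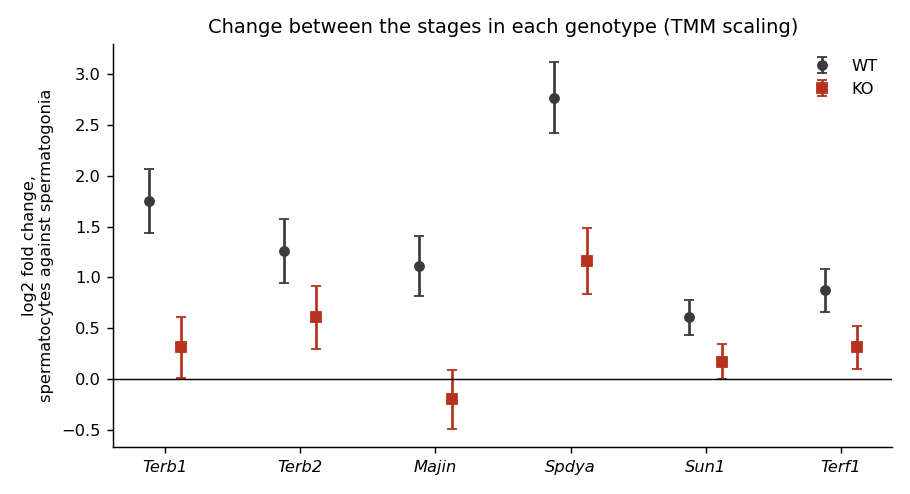
Log2 fold change from spermatogonia to spermatocytes (TMM over 14 libraries, with SE) in WT (circles) and KO (squares). All WT values are above 0, from 0.60 for Sun1 to 2.77 for Spdya, and the KO value of Majin is -0.20; under library totals the WT value of Sun1 is -0.20.

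An interaction term asked whether KO and WT differed more at one stage than at the other. The difference of the log2 fold changes (Spc minus Spg) was -1.61 ± 0.45 for Spdya, -1.44 ± 0.42 for Terb1 and -1.31 ± 0.41 for Majin, with adjusted p of 0.0109, 0.0143 and 0.0188. None passed the threshold of 0.01 in edgeR, where 25.7% of genes were called. All 3 had an unadjusted p-value under 0.05, as had 13296 of 24340 genes. DESeq2 called these 3 genes, among 9865 of 24340 called. So did edgeR with the replicate number as a block, which called 6288 genes. In that fit adjusted p was 0.00836 for Spdya, 0.00398 for Terb1 and 0.00509 for Majin. That block ties Spg and Spc libraries that share only a number and come from mice of different ages, so it adds no pairing from the design. Terb2 (-0.65), Terf1 (-0.56) and Sun1 (-0.44) had adjusted p from 0.134 to 0.234, and under library totals these 3 turned to 0.04, 0.18 and 0.27. The middle gene of the whole table stood at 0.20 with TMM and at 0.90 with library totals, and each member was below it in both fits. Without WT Spg replicate 2, 2 members were called, Majin (-1.59) and Spdya (-1.90), and without WT Spc replicate 3 these were Spdya (-1.76) and Terb1 (-1.60). In the main fit 2 of 8 pachytene and 2 of 6 spermatid markers were called lower, 2 of 4 macrophage markers higher, and 0 of 8 spermatogonial ones were called. Pachytene calls were 7 without WT Spg replicate 2, and 5 spermatogonial markers were called higher without WT Spc replicate 3. The part of the cell populations in the interaction was not tested.

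Compared per kb of exon, Spdya was the most abundant member in WT Spc, with 107 ± 29.1 CPM per kb (SD, n = 4). It was followed by Sun1 (39.5 ± 7.06), Majin (29.1 ± 6.73), Terb1 (28.8 ± 7.08), Terf1 (13.7 ± 1.74) and Terb2 (11.8 ± 3.62). Sun1 and Majin overlapped, as did Majin and Terb1, and Terf1 and Terb2, while Spdya lay above Sun1 and Terb1 above Terf1 in all libraries. In KO Spc the order changed: Sun1 led with 27.2 ± 3.93 CPM per kb and Spdya followed with 21.6 ± 4.40, which overlapped. Terb1 (10.4 ± 1.45), Terf1 (10.2 ± 1.67), Majin (9.06 ± 1.38) and Terb2 (8.42 ± 1.42) overlapped in part. In Spg, Sun1 was the highest in both genotypes (24.2 ± 2.14 in KO and 25.97 ± 1.77 in WT) and Terb2 the lowest (5.52 ± 0.98 and 4.94 ± 1.71).

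The profiles over the 14 libraries are given as Pearson's r of log2(CPM + 0.5), with no test, since the libraries share their stage, genotype and cell makeup. Terb1 and Spdya were the most alike pair of members (r = 0.96), and Majin and Terf1 the least (r = 0.42). Among 16918 genes, the most similar to Spdya were Lrriq3, Pkd2l2 and Arhgef33 (r from 0.99 to 1.00), and to Terb1 4930517E14Rik, Msrb3 and Dlg2 (0.97 to 0.98). For Majin they were Adad2, Tmem129 and Wdr41 (0.97 to 0.98), for Terb2 Yipf4, Fancc and B4galt7 (0.94 to 0.96), for Sun1 they included Dennd1a and Yy1 (0.97 to 0.98), and for Terf1 Usp16, 2810402E24Rik and Rpf1 (0.95 to 0.96). No gene was shared between the lists of the members.

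Around the 6 members, 48 genes of telomeres, the nuclear envelope and its motor were listed. In Spg none of the 47 tested was called by edgeR, 2 had an unadjusted p-value under 0.05, and DESeq2 called 1. In Spc 14 were called higher, 16 lower and 18 were not called, with a median log2 fold change of 0.10 against 0.11 over all genes. Of all 21919 genes 6145 were called higher and 6740 lower (30.7%), so that the counts of this list were near those shares. Under library totals the split was 19 higher and 8 lower, with replicates 1 and 4 summed 6 and 8, and without WT replicate 1 or 4 there were 9 calls higher.

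The partner of SUN1 in the outer membrane, KASH5 (listed as Ccdc155), moved as Terb1, Majin and Spdya did. It had 39.3, 38.2, 41.7 and 42.0 CPM in KO Spc and 253, 257, 187 and 232 in WT, with no overlap and a log2 fold change of -2.53 ± 0.18 (adjusted p = 4.62e-06, edgeR). It rose by 2.42 from WT Spg to WT Spc, and its interaction of -1.87 passed the threshold (adjusted p = 0.00358, edgeR). In WT Spg it had 32.4, 86.3 and 32.2 CPM on the common scale, where replicate 2 is the library with the high pachytene sum. Its KO against WT change in Spg ran from -0.98 to -0.04 over the alternative fits. It was the only one of the 10 genes of the nuclear envelope bridge (LINC complex) and lamina that was called lower. Emd (2.59), Syne1 (1.60) and Sun2 (1.32), which serve the nuclear envelope of many cell types, were called higher, and 6 were not called. The spermatid genes Sun3, Sun5 and Spag4 were all called lower (Spag4 by -2.52).

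Of the 7 genes of CDK2 and its partners, Cdk2 itself (-1.24) and Ccna1, the germ cell cyclin A (-7.41), were called lower, and the inhibitors Cdkn1a (3.79) and Cdkn1b (2.63) and cyclin Ccna2 (3.04) were called higher. Of the 6 shelterin partners of TERF1, Pot1a (2.18), Pot1b (1.35) and Terf2ip (1.18) were called higher, and 3 were not called. Among 12 dynein and dynactin genes, 6 were called lower, led by Dctn2 (-2.95), Dync1i2 (-1.69) and Dync1li2 (-1.63), and 3 higher, Dync1li1 (1.51), Dynll2 (1.43) and Nde1 (1.40). Among 10 telomerase and CST genes, Nop10 (-2.13), Rtel1 (-1.36) and Stn1 (-1.36) were the lowest of 4 called lower, and Dkc1 (3.39) and Tert (1.90) were called higher.

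**Figure D5:**
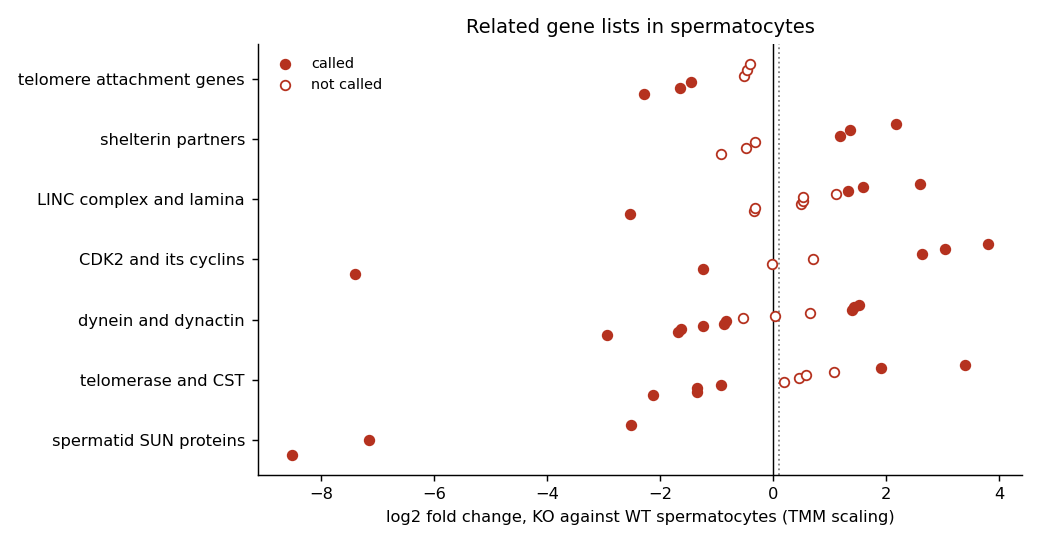
Log2 fold change, KO against WT spermatocytes (TMM scaling), of the 6 members and of the related gene lists. Filled points are called at an adjusted p under 0.01 and the dotted line is the median of all genes (0.11). In 5 of the lists genes are called on both sides or are called higher, while the called members and the spermatid SUN genes are all lower; under library totals 6 of the 48 listed genes change sign.

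Because DNMT3C acts on young retrotransposons, copies of young families within the members were looked up in the deposited table of single TE copies, a feature chosen after its values were seen. Terb1 held 9 such copies, Terf1 2, Terb2 and Sun1 1 each, and Majin and Spdya 0. In Terb1, 6 of them form a stretch of RLTR10C and MMERVK10C-int on the opposite strand of the gene (chr8:104459702-104465390, 5689 bases). It lies in introns, except that 1 RLTR10C copy overlaps an exon of a Terb1 transcript. Its summed TPM, which is relative to TE copies only, was 16.3, 12.8 and 7.44 in KO and 7.74, 2.61 and 6.52 in WT Spg. In Spc it was 2.71, 5.96, 4.00 and 2.41 in KO and 0, 0.147, 1.98 and 0.287 in WT. Reads are shared between near-identical copies, so that these values need not come from this locus. The share of counts from TE differed between the groups, so these TPM are not on one scale between genotypes or stages. No test was run on these sums.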

How the data were processed

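The authors trimmed the strand-specific reads of polyadenylated RNA with cutadapt 4.0, aligned them to GRCm38 with STAR 2.7.3a, allowing up to 100 alignments per read, and made raw counts per gene (GENCODE M25) and TE subfamily with TEtranscripts. For single TE copies the deposited values are TPM from TElocal, computed over TE copies alone. The fold changes and p-values that the authors deposited beside the counts were not used. All 14 libraries were used, and the Spg columns numbered rep4 belong to the samples titled replicate 3. Libraries that the authors left out for low RNA quality were not analysed here.

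Counts were filtered with filterByExpr, scaled by TMM over genes and TE subfamilies and fitted with edgeR 4.0.16 (glmQLFit, glmQLFTest, two-sided) in R 4.3.3. KO was compared with WT within each stage. Stages and the interaction were fitted over 14 libraries in 4 groups on 24340 genes. The SE is the fold change divided by the square root of F. DESeq2 1.42.0 was an alternative, beside other scalings, filters and libraries left out. The members and gene lists were chosen with earlier results of these data known. Named are all members, up to 3 called genes per list and direction with the largest change, 3 genes per member with the highest r (mean CPM of at least 1, of which 1 gene is not reported here), marker sums and Dnmt3c. Single cell type markers were named after their values were seen.

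Positions and exon lengths are from GENCODE M21, which is an older release on the same assembly. In Spg, the deviations of KO and WT libraries of the same replicate number had r of 0.515, 0.148 and 0.197, against -0.428 to 0.250 between different numbers. As 0.148 and 0.197 lie within that range, these values do not settle a pairing. A fit with the number as a block is given beside the unpaired fit, from which the Spg values come. Spc replicates 1 and 4 had a chi-square per degree of freedom of 11.0 in KO and 15.3 in WT, against 113 to 289 for the other pairs, and were kept as separate libraries.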

Additional observations from a re-analysis of the deposited data

Results flagged for a closer look

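Among 12 groups of 4 Spc libraries (6 members in each genotype), 1 held a library far from the others. Sun1 was at 316 CPM in WT Spc replicate 2 and between 237 and 244 CPM in the other 3 WT libraries. The gap took 0.91 of the range of the group, which is above Dixon's 95% critical value for 4 libraries. Chance flags about 1 in 20 groups. Without this library the log2 fold change of Sun1 in Spc was -0.43 (adjusted p = 0.0765, edgeR), against -0.51 with it.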

How the results depend on the processing

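In Spc the alternatives kept 2 to 4 members called: library totals dropped Majin, and DESeq2 or a threshold of 0.05 added Sun1. Of all 21919 genes 12954 were called with library totals, 15027 with DESeq2 and 15916 at the 0.05 threshold. Under library totals, KO against WT in Spc turned to 0.18 for Terb2, 0.16 for Sun1 and 0.30 for Terf1. The rise of Sun1 in WT turned to -0.20 under that scaling, and the interaction to 0.043 for Terb2, 0.27 for Sun1 and 0.18 for Terf1. Of the 6 rises called in WT, 1 was left under library totals, 3 without the filter on low counts, and 2 to 6 when 1 library was left out. From KO Spg to KO Spc, 0 members were called in each fit but 1 at a threshold of 0.05, where 2043 of 24340 genes were called. For the interaction 3 members were called with DESeq2, 3 at the 0.05 threshold, and 0 to 2 with 1 library left out. At the 0.05 threshold 11191 genes were called in the interaction. In Spg, leaving out 1 library moved Terb1 from -0.32 to 0.19, Terb2 from -0.092 to 0.46 and Terf1 from -0.032 to 0.23, none of them called in any fit. The cause of these changes was not tested, apart from the shift of the median gene given with the scaling.

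With the replicate block, 3 members were called in the interaction in place of 0, and Sun1 lost its call in the WT rise (0.59, adjusted p = 0.0185, edgeR). The block changed no other call of a member. In Spc, too, the main fit did not treat the replicate numbers as pairs. There r between same-numbered libraries ran from -0.004 to 0.209, and 11439 genes were called with the block against 12885 without it.

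Calls over all genes also moved. In Spg 9 genes were called, 0 to 18 without 1 library, 144 without the filter and 514 with DESeq2. In Spc 12885 were called, 10738 to 14117 without 1 library, 8758 with replicates 1 and 4 summed and 15027 with DESeq2. Between KO stages 742 were called, 112 to 1005 without 1 library, 375 with the block, 346 with replicates 1 and 4 summed and 2337 with DESeq2. In the interaction 6251 were called, 3793 to 8993 without 1 library, 3521 with replicates 1 and 4 summed and 9865 with DESeq2. Of the calls of the WT rise 55.6% were higher under TMM and 34.2% under library totals, and of those of the interaction 43.0% and 71.0%. The members had at least 410 counts in every library, and no fit at another depth was run.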
